A study of Harpegnathos saltator with 22 samples.

Results

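Fas2, Appl, mirr, Galphao, pot and IFT20 are 6 of the 13693 genes measured in ovaries of the ant Harpegnathos saltator after knockdown of Kr-h1 by siRNA. Kr-h1 is a zinc-finger protein that carries the juvenile hormone signal to its target genes. They were picked by gene ID as genes higher in gamergates and lower in workers after Kr-h1 siRNA, so their values in those comparisons chose them and are given below as a description. The 6 gene IDs in that order were LOC105182747, LOC105188919, LOC105188636, LOC105185321, LOC105184483 and LOC105192606. The rule did not hold for every gene. In the authors' deposited table all 6 were called higher in gamergates, but 5 were called lower in workers, because Appl had an adjusted p of 0.0898 there against a threshold of 0.05.

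Each library came from the ovaries of a single ant. Gamergates are workers that have mated and lay eggs in place of a queen. The 4 groups were mature gamergates given control siRNA (6 ants) or Kr-h1 siRNA (7 ants), and mature workers given control siRNA (5 ants) or Kr-h1 siRNA (4 ants). The control siRNA was directed against GFP. All ants received dicer-substrate siRNA with a transfection reagent by injection into the head, and ovaries were taken 24 h later, so the tissue measured was not the tissue injected. The targeted gene, Kr-h1, was not called in the ovary of either caste in the authors' deposited table (log2 fold change 0.26 in gamergates, adjusted p = 0.734, and -0.48 in workers, adjusted p = 0.706). Its means there were low, at 42.3 and 38.7 normalized counts. The standard errors recovered from the p-values were 0.47 and 0.70, larger than the fold changes in size. These values cannot settle whether Kr-h1 fell in the ovary.

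The insect ovary is a set of egg tubes in which germ cells are wrapped by an epithelium of follicle cells. Follicle cells hold to each other through adhesion molecules, take on positions along the body axes of the future egg through receptor signalling and transcription factors, and secrete an extracellular matrix from their apical side. Outside the ovary, several of the same genes are best known from neurons and epidermis of the fly Drosophila. The gene symbols are those of presumed fly counterparts, and the roles given here are known from the fly unless another species is named.

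The deposited values belong to comparisons and not to ants: each gene has, per comparison, its mean normalized count, its log2 fold change and its p-value before and after adjustment. The depth of each library is unknown and no value per ant can be shown. The mean of each group was recovered from the mean count, the fold change and the group sizes, and the standard error (SE) of each log2 fold change was recovered from its p-value. Normalized counts are not divided by gene length, so levels are compared between groups and never between genes. In a whole ovary, fewer cells of a type and less RNA per cell cannot be told apart.

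Fas2 encodes Fasciclin 2, an immunoglobulin-domain receptor that binds its own kind on neighbouring cells. In the fly ovary it is found in follicle cells and is lost from border cells before they migrate. The recovered mean of Fas2 was 869.9 normalized counts in control gamergates and 1232 in Kr-h1 gamergates, and 2372 in control workers and 1434 in Kr-h1 workers. The control workers stood highest and the control gamergates lowest, with both Kr-h1 groups between them. In the authors' deposited table the log2 fold change of Fas2 was 0.50 in gamergates (recovered SE 0.14, adjusted p = 0.0082) and -0.73 in workers (recovered SE 0.23, adjusted p = 0.0373).

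Appl encodes the fly relative of the amyloid precursor protein, a membrane protein that is abundant in neurons and is cut by secretases. Its recovered mean was 603 normalized counts in control gamergates and 963 in Kr-h1 gamergates, and 2856 in control workers and 1519.9 in Kr-h1 workers. The order of the groups was that of Fas2. For Appl the authors' deposited table gives a log2 fold change of 0.68 in gamergates (recovered SE 0.20, adjusted p = 0.0107). In workers it was -0.91 there, with the unadjusted p at 0.0079 and the adjusted p at 0.0898 (recovered SE 0.34), so Appl was not called in workers.

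The gene mirr (mirror) encodes a homeodomain transcription factor of the Iroquois family. In the fly ovary, EGF receptor signalling turns it on in dorsal anterior follicle cells, where it sets the dorsoventral axis of the egg. The recovered mean of mirr was 166 normalized counts in control gamergates and 272 in Kr-h1 gamergates, and 513 in control workers and 266 in Kr-h1 workers. The Kr-h1 groups of the castes lay close together, between the control groups. For mirr the authors' deposited table gives 0.71 on the log2 scale in gamergates (recovered SE 0.18, adjusted p = 0.0041) and -0.95 in workers (recovered SE 0.30, adjusted p = 0.0408).

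Galphao encodes the alpha subunit of the heterotrimeric G protein Go, which relays signals from receptors including Frizzled. Its recovered mean was 50.0 normalized counts in control gamergates and 93.0 in Kr-h1 gamergates, and 257 in control workers and 114 in Kr-h1 workers. Control workers stood well above the other groups. Galphao had, in the authors' deposited table, a log2 fold change of 0.90 in gamergates (recovered SE 0.28, adjusted p = 0.0199) and -1.17 in workers (recovered SE 0.35, adjusted p = 0.0293). Removing the trend of fold change with mean count ended the worker call (adjusted p = 0.0706).

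The gene pot (papillote) encodes a zona pellucida domain protein that ties epidermal cells to the apical matrix. Its recovered mean was 61.8 normalized counts in control gamergates and 143 in Kr-h1 gamergates, and 401 in control workers and 169.6 in Kr-h1 workers. Both fold changes were the largest of the 6 genes in size. In the authors' deposited table the log2 fold change of pot was 1.21 in gamergates (recovered SE 0.32, adjusted p = 0.0051) and -1.24 in workers (recovered SE 0.36, adjusted p = 0.0225), a 2.32-fold higher and a 2.37-fold lower mean.

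IFT20 encodes a subunit of the intraflagellar transport complex B, known from green algae and vertebrates as cargo carrier of the cilium and, in mammals, also found at the Golgi. Its recovered mean was 76.2 normalized counts in control gamergates and 127 in Kr-h1 gamergates, and 243 in control workers and 149 in Kr-h1 workers. The groups kept the order seen for Fas2. IFT20 had, in the authors' deposited table, a log2 fold change of 0.73 in gamergates (recovered SE 0.27, adjusted p = 0.0464) and -0.71 in workers (recovered SE 0.23, adjusted p = 0.0482). Both calls sat close to the threshold of 0.05: adjusted over every gene with a p-value they became 0.0527 and 0.0578, and with the trend on mean count removed the worker value became 0.159.

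**Figure D1:**
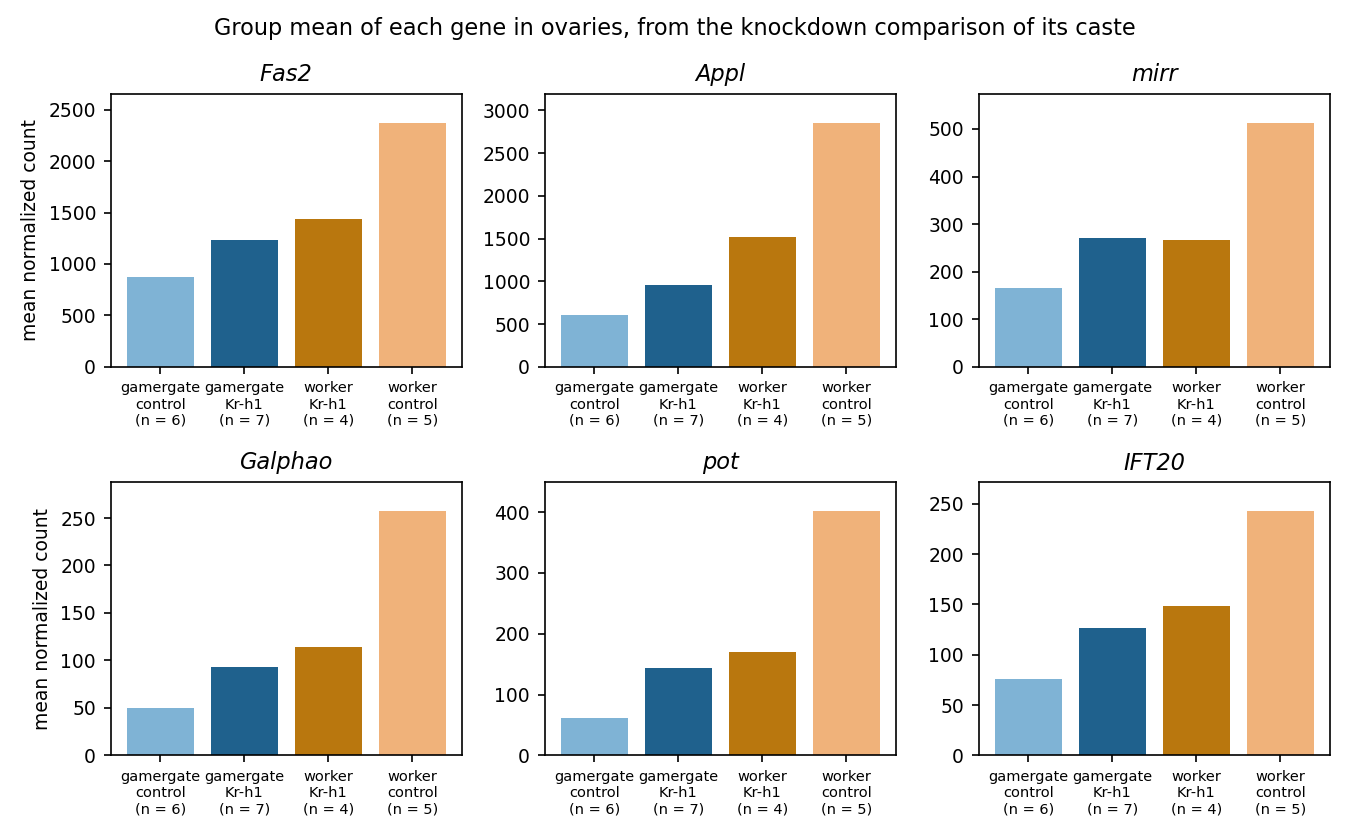
Recovered mean normalized count (vertical axis, from 0) of each gene in the 4 groups, with the number of ants under each bar. Bars are group means with no error because values per ant are not in the table used. For each gene the control gamergates are lowest and the control workers highest, as for pot at 61.8 and 401.

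Within gamergates the log2 fold changes of the 6 genes ran from 0.50 to 1.21 with a median of 0.72, against a median of 0.0014 over the 11145 genes tested in the authors' deposited table. All 6 were called higher, where 8.95% of tested genes were. Within workers the log2 fold changes ran from -1.24 to -0.71 with a median of -0.93, against 0.010 over the 10577 genes tested in the authors' deposited table. There 5 were called lower, where 2.69% of tested genes were. The genes were chosen by these comparisons, so nothing is read from those shares. In gamergates 1 of the 6 changed by at least 2-fold, pot, and in workers 2 did, pot and Galphao.

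Between castes with control siRNA, the 6 genes were higher in workers. This comparison was not named in the choice of the genes, but it shares both control groups with the knockdown comparisons, so low control gamergates or high control workers enter both. In the authors' deposited table the log2 difference of workers over gamergates was largest for pot, at 2.84 (recovered SE 0.25, adjusted p = 1.89e-28), and a 7.15-fold higher level. It was 2.51 for Galphao (recovered SE 0.33, adjusted p = 5.78e-13) and 2.39 for Appl (recovered SE 0.25, adjusted p = 7.31e-21) in that authors' deposited table. IFT20 stood at 1.82 (recovered SE 0.18), mirr at 1.78 (recovered SE 0.27) and Fas2 at 1.59 (recovered SE 0.18) in the authors' deposited table, with adjusted p of 2.62e-23, 2.22e-10 and 9.08e-18. All 6 of 6 were called higher in workers, where 27.2% of the 12338 tested genes were called higher and 26% lower. The 38 genes called higher in gamergates and lower in workers, 5 of the 6 included, ran from 0.77 to 4.52 in this comparison. Their median was 2.26, so higher levels in control workers were shared by all 38.

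**Figure D2:**
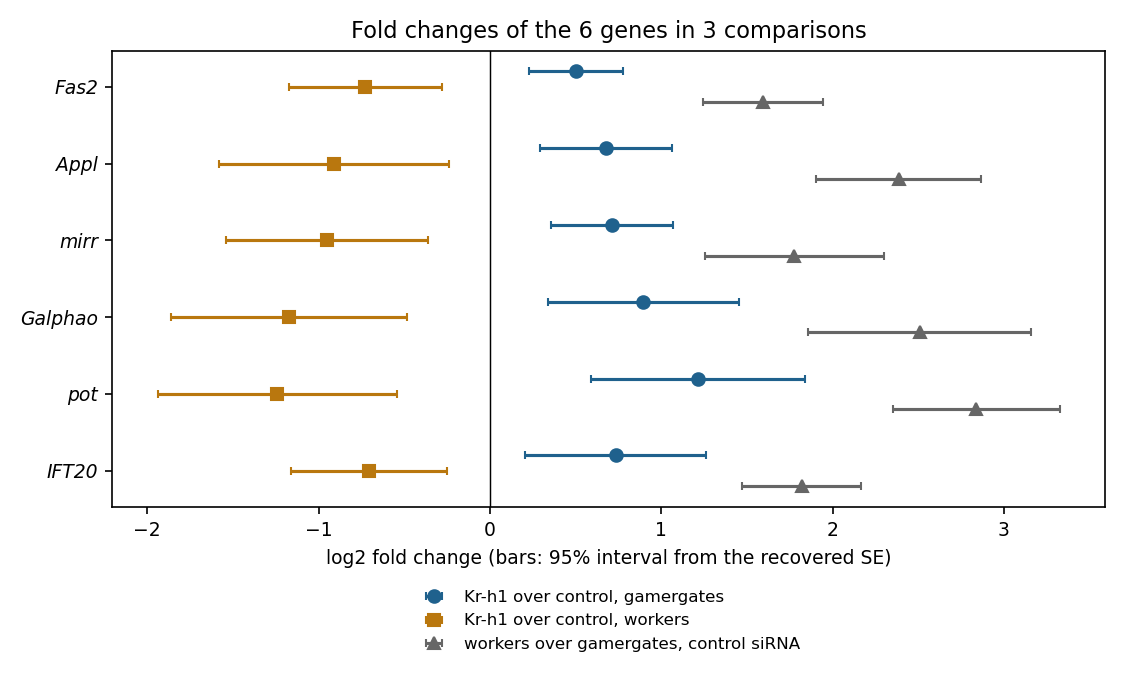
Log2 fold change (horizontal axis) of each gene in the 3 comparisons of the authors' deposited table, as points with 95% intervals from the recovered SE, not adjusted for the number of genes. The gamergate responses lie between 0.50 and 1.21, the worker responses between -1.24 and -0.71, and the caste differences between 1.59 and 2.84.

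The castes lay closer together after Kr-h1 siRNA than after control siRNA, which was not tested. The opposite signs by which the genes were chosen can only lower the ratio of workers over gamergates. That the lower ratio meant a narrower gap rests also on the higher levels of control workers, which the rule did not name. The difference of Kr-h1 workers over Kr-h1 gamergates was derived from the log2 fold changes of the authors' deposited table. It is the control caste difference minus the gamergate response plus the worker response, with no SE because the comparisons share control ants. For pot the 7.15-fold control difference became 1.30-fold, and for Galphao the 5.69-fold difference became 1.36-fold. For Fas2 the 3.02-fold difference became 1.29-fold and for IFT20 the 3.53-fold difference became 1.30-fold. Appl kept the widest gap of the 6, 1.74-fold against 5.23-fold. The gap was narrowest for mirr, 1.08-fold against 3.43-fold, and its direction depended on the scale: taken from the recovered levels, the Kr-h1 log2 difference of mirr was -0.031 in place of 0.12. The knockdown comparisons were scaled separately from the comparison of castes, and relative to the latter the control levels stood at 2.45% in gamergates and -7.07% in workers.

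The opposite signs and the sizes of the 2 responses are those that chose the 6 genes and are given as a description. The ratio of the worker to the gamergate log2 fold change in size was 1.45 for Fas2, 1.34 for Appl, 1.33 for mirr, 1.31 for Galphao, 1.02 for pot and 0.96 for IFT20. For each of the 6 the 2 sizes differed by less than the SE of that difference, as for Fas2 at 0.22 against 0.27. No gene is therefore read as responding more strongly in one caste. The gamergate response minus the worker response was 2.45 (SE 0.48) for pot and 2.07 (SE 0.45) for Galphao on the log2 scale. It was 1.66 (SE 0.35) for mirr, 1.59 (SE 0.39) for Appl, 1.44 (SE 0.36) for IFT20 and 1.23 (SE 0.27) for Fas2, and these differences follow from the choice of the genes.

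Worker fold changes varied with the mean normalized count over all genes, so each of the 6 is set beside the trend at its own mean. In workers the median log2 fold change was -0.46 over tested genes below a mean of 100, and 0.11 over those from 1000 upwards. At the mean counts of Galphao and IFT20 in workers, 193 and 201, the fitted trend was -0.16 and -0.15 on the log2 scale. At the mean counts of Appl and Fas2, 2262 and 1955, it was 0.098 and 0.10, so the values of these genes ran against the trend. The trend at the means of mirr and pot was 0.024 and -0.037. In gamergates the trend at the 6 means was at most 0.019.

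In all, 38 of the 10453 genes tested in both castes were called higher in gamergates and lower in workers, a share of 0.364%. Of these, 11 have a descriptive symbol and 5 are among the genes described here. Over the 38 genes the median log2 fold change was 0.76 in gamergates and -1.10 in workers in the authors' deposited table. The other 6 with a symbol were Ten-m, Fas1, fw, Ubx, Jra and form3, named after their values had been seen. In gamergates and workers, the log2 fold changes in the authors' deposited table were 0.97 and -1.21 for Ten-m, a teneurin that links cells across synapses and muscle attachments. The homeotic gene Ubx stood at 1.47 and -1.26, and Jra, the fly Jun transcription factor, at 0.62 and -1.24 there, in the authors' deposited table. The formin gene form3 stood at 0.94 and -1.12 in the authors' deposited table.

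Among genes with a symbol and the signs of the rule, the last inside the threshold were Ubx and IFT20, with adjusted p of 0.0479 and 0.0482 in workers in the authors' deposited table. The first outside it were Galphai, a G protein alpha subunit of the same class as Galphao, and Miox, an inositol oxygenase, with 0.0501 and 0.0518. Between the threshold and Appl lay 13 genes with a symbol, Galphai and Miox included.

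**Figure D3:**
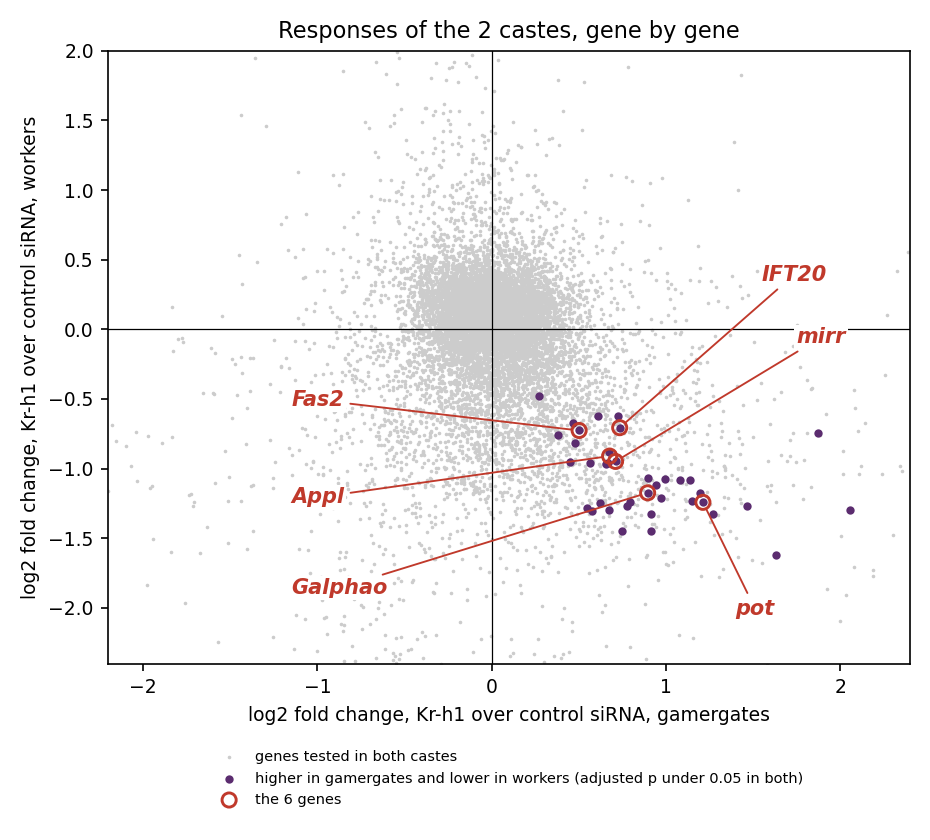
Log2 fold change after Kr-h1 siRNA in gamergates (horizontal axis) and workers (vertical axis) for the 10453 genes tested in both, with the 38 genes called higher in gamergates and lower in workers filled and the 6 genes circled. The filled point inside the circle of Appl is another gene. The axes leave out 83 genes with larger values.

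The genes whose 3 fold changes were most like those of each member were sought among 3667 other genes that have a symbol and reach a mean of 50, by Euclidean distance over the 3 log2 fold changes of the authors' deposited table, which share control ants. Fas2 was nearest to CRMP, a relative of the collapsin response mediator proteins (distance 0.097), and to the receptor gene Toll-6 (0.13). IFT20 was nearest to Mp, a collagen of the multiplexin type (0.10), and to babo, an activin receptor (0.26). Appl was nearest to the LIM protein gene Lmpt (0.14) and to blo (0.24). Galphao was nearest to Ten-m (0.15) and Sclp (0.27), pot to the peptidase-like Ance-3 (0.27) and Ten-m (0.32), and mirr to sigmar (0.23) and Mp (0.26). Of these neighbours Ten-m was called in both castes, while CRMP had an adjusted p of 0.168 and Lmpt of 0.114 in workers in the authors' deposited table.

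The molecules that work with the 6 genes were followed in 8 lists, from which the 6 genes were left out. A list is described by its counts and its median. The medians of all tested genes were 0.0014 in gamergates and 0.010 in workers, and the shares called were 8.95% higher and 5.9% lower in gamergates and 2.23% higher and 2.69% lower in workers. In the adhesion receptor list, 22 of 47 symbols were found. Of 21 tested genes, 5 rose and none fell in gamergates (median 0.25, with 9 genes higher and 0 lower before adjustment at p under 0.05), and 3 fell and none rose in workers (median -0.31, with 9 genes lower and 0 higher before adjustment at p under 0.05). Fas1, a fasciclin-domain adhesion protein, rose by 0.48 in gamergates and fell by 0.82 in workers in the authors' deposited table, as Ten-m did by 0.97 and 1.21. The nephrin-like receptor sns stood at 0.82 in gamergates (adjusted p = 0.0047), and the integrin alpha subunit gene if at -1.18 in workers (adjusted p = 0.0178) in the authors' deposited table.

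Septate junctions seal the sides of epithelial cells, and several of their components are adhesion molecules like Fas2. Of 28 genes, 7 rose and 1 fell in gamergates (median 0.12). Of 27 tested in workers, 3 fell and none rose (median -0.33, with 10 genes lower and 1 higher before adjustment at p under 0.05). In gamergates the smallest adjusted p were those of the polarity genes par-6 (0.47) and aPKC (0.35) and of the sodium pump Atpalpha (0.38), all log2 fold changes of the authors' deposited table. In workers the neurexin gene Nrx-IV stood at -0.75, pasi1 at -1.11 and mesh at -3.34 in the authors' deposited table, the last with a low mean of 14.4 normalized counts and no longer called with the trend on mean count removed (adjusted p = 0.0786). Of 14 genes in the cadherin list, 3 rose and 2 fell in gamergates (median 0.12) and none was called in workers (median -0.51, with 3 genes lower and 0 higher before adjustment at p under 0.05), with kug at 0.61, Cals at 0.60 and Cad88C at -2.48 in gamergates in the authors' deposited table. That list took in fry, which is not a cadherin and was called in neither caste.

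Around mirr, the axis patterning list held 36 genes. In gamergates 13 rose and 1 fell (median 0.23), and in workers 1 fell and none rose (median -0.22, with 5 genes lower and 1 higher before adjustment at p under 0.05). The genes with the smallest adjusted p in gamergates were the receptor gene Egfr (0.57, adjusted p = 2.20e-14), its inhibitor sty (0.81) and the LIM homeodomain gene tup (0.45) in the authors' deposited table. In workers the BMP ligand gene gbb fell by 1.63 in the authors' deposited table (adjusted p = 0.0029).

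Around pot, the list of zona pellucida and apical matrix genes had 1 gene higher and 2 lower of 17 in gamergates (median -0.015). The list took in Dp, which in the fly is a partner of E2F and not a matrix gene. Dp was called in neither caste (0.041 in gamergates and 0.30 in workers) but enters the medians. In workers 4 fell and none rose of 14 (median -0.66, with 6 genes lower and 0 higher before adjustment at p under 0.05). Those with the smallest adjusted p in workers in the authors' deposited table were the zona pellucida genes pio (-1.73) and dpy (-1.28), which act with pot in the fly, and fw (-1.30), a selectin-like protein. The calls of dpy and fw were lost with the trend on mean count removed (adjusted p = 0.102 and 0.0818). In gamergates fw stood at 0.67, the protease gene Np at -1.49 and Gasp at -2.42 in the authors' deposited table, while pio (0.29) and dpy (-0.022) were not called.

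Around Galphao, 6 of 25 G protein signalling genes rose and 1 fell in gamergates (median 0.18), led by pins (0.37), the kinase subunit Pka-C1 (0.63) and the RGS-domain regulator loco (0.39) in the authors' deposited table. In workers 2 fell and none rose (median 0.030, with 4 genes lower and 3 higher before adjustment at p under 0.05), the adenylyl cyclase gene Ac3 (-2.41, lost with the trend removed at adjusted p = 0.122) and insc (-0.88, lost when adjusted over every gene with a p-value at 0.0508) in the authors' deposited table. Around Appl, 7 of 17 genes rose and 1 fell in gamergates (median 0.21), among them Vps26 (0.49) and the kinesin heavy chain Khc (0.32), while the secretase subunit gene pen-2 stood at -0.34 in the authors' deposited table. In workers the adjusted p of DESeq2 called none of 15 (median 0.0026, and 0 in either direction at an unadjusted p under 0.05).

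Around IFT20, calls in the cilium list were 1 of 24 or 0 in each direction and caste, against shares of 8.95% higher and 5.9% lower in gamergates and 2.23% higher and 2.69% lower in workers over all tested genes. Of the 24 other intraflagellar transport and cilium genes tested, 1 rose in gamergates, the transcription factor gene Rfx (0.30, adjusted p = 0.0449, and 0.0511 over every gene with a p-value) in the authors' deposited table. In workers 1 rose and 1 fell, the BBSome subunit gene BBS5 (1.04) and the transition zone gene Mks1 (-1.11, lost with the trend removed at adjusted p = 0.241) in the authors' deposited table. The medians were 0.0098 in gamergates and -0.17 in workers. The difference between IFT20 and its list was not tested, since IFT20 was chosen for its response.

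Whether gamergates and workers responded differently was tested for the list genes, whose lists were written with earlier results of these data known. A z test on the recovered SEs, adjusted over 10453 genes, called 5.19% of all tested genes more positive in gamergates and 5.27% more positive in workers. In the adhesion receptor list 7 of 21 genes were more positive in gamergates and none in workers, and in the septate junction list 7 of 27 and none. The patterning list had 7 of 36 and none, and the apical matrix list 5 of 14 and none. The cadherin list had 1 of 14 in each direction, the G protein list 3 and 1 of 25, the Appl list 1 of 15 and none, and the cilium list none and 2 of 24. Nrg and Lac stand in both the adhesion receptor and the septate junction lists.

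**Figure D4:**
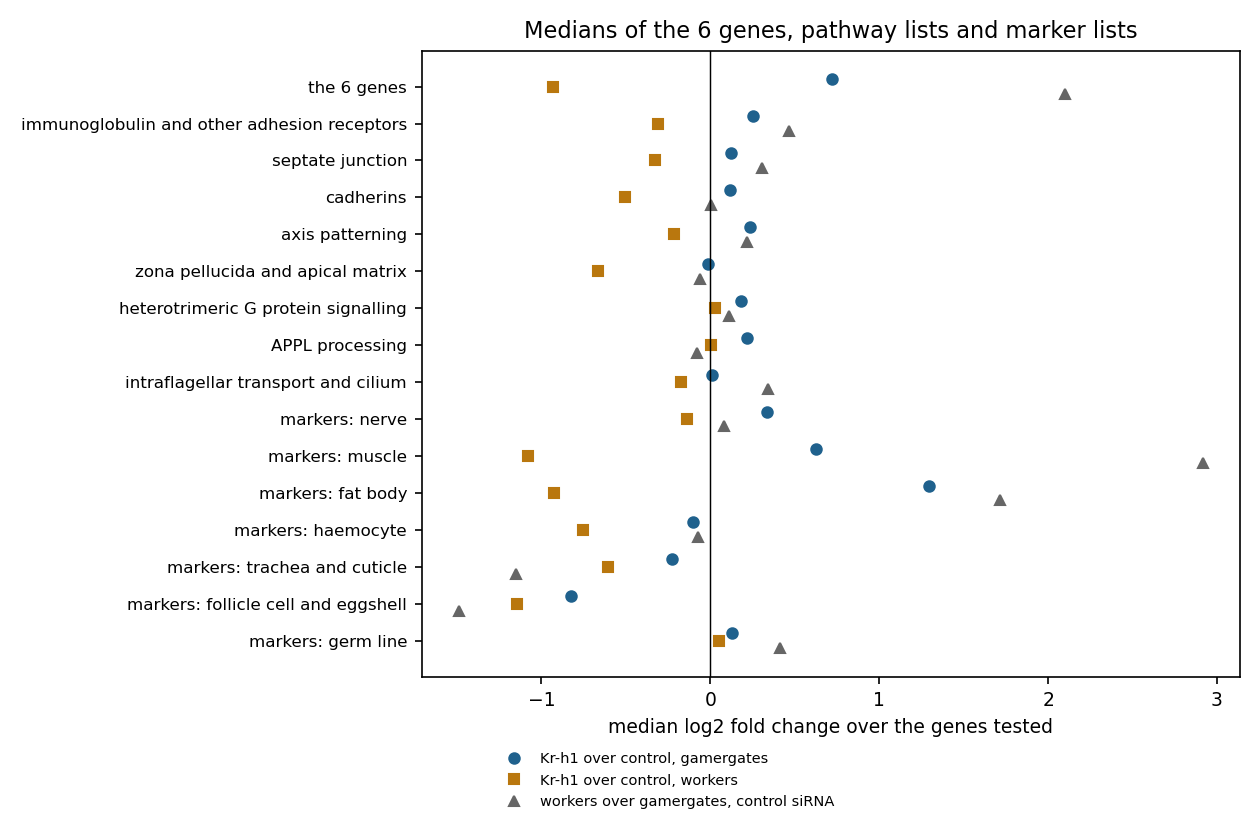
Median log2 fold change (horizontal axis) of the 6 genes, the 8 pathway lists and the 7 marker lists in the 3 comparisons, over the genes tested. The 6 genes have medians of 0.72 and -0.93 in gamergates and workers. The muscle markers (0.62 and -1.08) and fat body markers (1.29 and -0.93) lie on the same sides.

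The muscle and fat body markers had medians on the same sides as the 6 genes in both castes, the nerve markers did so with smaller medians, and the haemocyte, trachea and cuticle, and germ line markers did not. The part of these tissues in the result was not tested. The 11 muscle markers had a median log2 fold change of 0.62 in gamergates, -1.08 in workers and 2.91 in workers over gamergates. Their summed level was 10579 normalized counts in control and 11083 in Kr-h1 gamergates, and 28106 in control and 16828 in Kr-h1 workers, and 6 of the 11 had the 3 signs of the 6 genes. Most of the gamergate sums was Tm1, a tropomyosin gene that differed little between groups. It stood at 6931 in control and 6769 in Kr-h1 gamergates, and at 6666 in control and 6672 in Kr-h1 workers. The myosin heavy chain gene Mhc stood at 411 and 705 normalized counts in control and Kr-h1 gamergates, and at 2824 and 1168 in control and Kr-h1 workers. None of the 11 was called after knockdown in either caste by the adjusted p of DESeq2 (1 higher at an unadjusted p under 0.05 in gamergates and 4 lower in workers), but 8 were called higher in workers than in gamergates, where 27.2% of all tested genes were.

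All 6 genes of the fat body list had the signs of the 6 genes. Among them, vg carries the fly symbol of vestigial, which is not a fat body marker. Hex110, Hex70a and Hex70c had low means, at 8.6, 16.6 and 15.1 normalized counts over the control castes. The summed level of the list was 1108 in control and 2851 in Kr-h1 gamergates and 7719 in control and 3741 in Kr-h1 workers. Most of that sum was apolpp, the lipid carrier (1.38 in gamergates and -1.05 in workers in the authors' deposited table, adjusted p = 0.0121 and 0.545). The 16 nerve markers, of interest because Fas2, Appl and Galphao are known from neurons, had 4 genes higher of 16 tested in gamergates (median 0.33) and none of 12 by the adjusted p of DESeq2 in workers (median -0.14, with 0 higher and 1 lower at an unadjusted p under 0.05). Syt1 (0.78 in gamergates and -1.37 in workers in the authors' deposited table) has no p-value in workers and is not among those 12. Of the 16, 8 had the opposite signs of the 6 genes and 7 were also higher in control workers. Snap25, a protein of synaptic vesicle fusion, stood at 0.38 in gamergates (adjusted p = 0.0157) and -0.72 in workers (adjusted p = 0.0730) in the authors' deposited table. Its z test of the difference between castes gave an adjusted p of 0.0047. Their summed level was 6877 in control and 6678 in Kr-h1 gamergates, and 6600.2 in control and 5451 in Kr-h1 workers. Among those that define neurons by transmitter, VGlut and VAChT stayed at or under 6.1 normalized counts in every group, and ChAT lay between 18.2 and 50.2 and Gad1 between 29.5 and 61.3. Vmat, the monoamine transporter gene, stood higher in gamergates, at 123 in control and 114 in Kr-h1 gamergates. It was at 20.6 in control and 13.6 in Kr-h1 workers. Between control castes 6 of the 16 nerve markers were called higher in workers and 6 lower, where 27.2% and 26% of all tested genes were. Syt1 stood at 2.29, Snap25 at 1.42 and Rim at 1.11, and Vmat at -2.45 and brp at -2.28 in the authors' deposited table.

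No marker of any list was at 0 in all ants of a comparison. The 4 haemocyte markers had medians of -0.10 and -0.76 in gamergates and workers, with a summed level of 2968 in control and 2553 in Kr-h1 gamergates and 1725 in control and 1115 in Kr-h1 workers. The 4 trachea and cuticle markers had medians of -0.23 in gamergates and -0.60 in workers, the latter over 3 tested, and summed to 2398, 1796, 583 and 401 in the same order of groups. Most of those sums was serp, at 2305, 1701, 446 and 294 in that order. Of the 4 markers 1, verm, had the 3 signs of the 6 genes. It stood at 0.84 in gamergates, -1.26 in workers and 3.12 in workers over gamergates, and was not called in either knockdown comparison. The 9 follicle cell and eggshell markers had a median of -0.83 over the 7 tested in gamergates and of -1.14 over all 9 in workers, and none had the signs of the 6 genes. Their summed level was 19898 and 7283 in control and Kr-h1 gamergates, and 4136 and 3499 in control and Kr-h1 workers. Those sums include the eggshell genes yellow-g (-7.54 in gamergates) and yellow-g2 (-3.59), which have no p-value in gamergates in the authors' deposited table and are not in that median. Most of the fall of the gamergate sum was ndl, from 7360 to 503, and yellow-g, from 4489 to 24.1. The follicle cell gene tj stood at 1334 in control and 1151 in Kr-h1 gamergates. Of the 7 tested in gamergates 3 were called lower and 1 higher, fs(1)N (0.37, adjusted p = 0.0495), in the authors' deposited table. Over all tested genes 5.9% were called lower and 8.95% higher. The 5 germ line markers had medians of 0.13 and 0.052.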

How the data were processed

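Polyadenylated RNA of ovaries was sequenced from strand-specific dUTP libraries, 1 per ant, per the labels' protocols. Per the submitters' processing notes the tools were bcl2fastq, STAR, featureCounts and DESeq2. Their versions, the genome build, the annotation and the strand setting of the counting are not given here, so no coordinates are printed. The authors deposited, for each of 3 comparisons, the mean normalized count, the log2 fold change and the p-value before and after adjustment of each gene, with 0 further value columns. A planned count test for each ant was replaced by these deposited values.

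The adjusted p (DESeq2, threshold 0.05) is the authors'. A Benjamini-Hochberg adjustment over the same genes differed from it by at most 0.0018. Each SE was recovered from the log2 fold change and the normal quantile that its p-value stands for, on the assumption of a Wald test. Group means were recovered from mean count, fold change and group sizes. The difference of the castes' responses was tested by a z test on the recovered SEs with Benjamini-Hochberg adjustment over 10453 genes, for list genes and never for the 6 chosen genes. These steps were run on simulated data, with normal errors of the recovered SEs for the SE and z test steps. That run checks the arithmetic and cannot show whether the assumption of a Wald test holds. P-values measure the spread between ants only as far as the authors' model does, and the number of ants (4 to 7 a group) limits their precision.

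Symbols came from RefSeq (Hsal_v8.6) through the number in the gene ID, where 13681 of 13693 IDs matched and 4117 have a descriptive symbol. The 6 genes, the 8 pathway and 7 marker lists and the tests were chosen with earlier results of these data known. Named genes were the 6, up to 3 called genes per list and comparison with the smallest adjusted p, the 2 nearest genes to each of the 6, and 2 symbols on each side of the threshold. 1 gene, Nos, was taken out of the germ line list because that symbol stands for nitric oxide synthase. The genes vg, Dp and fry were kept in the fat body, apical matrix and cadherin lists, although they are not of the kind those lists name. Alternatives were a median shift, a lowess trend on mean count (fraction 0.3), adjustment over all p-values, a threshold of 0.01 and a mean of at least 50. Python 3.11.15, pandas 2.3.3, scipy 1.17.1 and statsmodels 0.14.6 were used.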

Additional observations from a re-analysis of the deposited data

Results flagged for a closer look

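For 33 genes of the pathway lists named in a knockdown comparison, the gamergate response was set against the worker response by the z test of the report, which 32 could enter. A difference was called for 17, with 15 more positive in gamergates, where 5.19% of 10453 tested genes were called, and 2 more positive in workers, where 5.27% were. The 17 had been named because they were called in a knockdown comparison, so many calls follow from that.

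Among adhesion receptors the differences, gamergates minus workers on the log2 scale, were 2.18 for Ten-m (SE 0.39, adjusted p = 1.02e-05), 1.30 for Fas1 (SE 0.29), 1.35 for if (SE 0.39) and 1.06 for sns (SE 0.34). In the septate junction they were 0.94 for Nrx-IV (SE 0.27), 0.85 for pasi1 (SE 0.29) and 3.08 for mesh (SE 1.04). Among cadherins they were 1.69 for kug (SE 0.50) and -2.76 for Cad88C (SE 0.87). Among patterning genes they were 1.42 for sty (SE 0.37) and 1.54 for gbb (SE 0.48). In the apical matrix they were 2.02 for pio (SE 0.54), 1.97 for fw (SE 0.44) and 1.26 for dpy (SE 0.41). In G protein signalling they were 3.99 for Ac3 (SE 1.21) and 0.66 for loco (SE 0.19), and in the cilium list -1.26 for BBS5 (SE 0.30). With the trends on mean count removed, an alternative chosen after seeing the data, mesh (adjusted p = 0.0942), dpy (0.126) and gbb (0.0637) lost their calls.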

How the results depend on the processing

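The signs of all 18 fold changes of the 6 genes were the same with the median of all genes subtracted, with the trend on mean count removed and with p-values adjusted over every gene that has one, and 14 of the 17 calls held in all 3. IFT20 lost its call over every gene with a p-value in gamergates (log2 0.73, adjusted p = 0.0527) and in workers (-0.71, adjusted p = 0.0578). With the trend removed, IFT20 (-0.56, adjusted p = 0.159) and Galphao (-1.02, adjusted p = 0.0706) lost theirs in workers. The number of genes called higher in gamergates and lower in workers was 38, and 40, 32 and 32 with the trend removed, adjusted over every p-value and with a mean of at least 50, but 5 at a threshold of 0.01. Of the 6 genes, 5 were so called, 3 with the trend removed and 0 at 0.01. Over the 8 pathway lists, the calls of 42 higher and 8 lower in gamergates became 18 and 2 at 0.01, those of 1 higher and 14 lower in workers became 0 and 3, and the 35 lower in workers than in gamergates became 23. The 1 higher in workers became 2 with the trend removed. For these changes at 0.01 the stricter threshold is the cause by construction. Elsewhere the cause was not tested. Leave-one-out fits need values per ant and were not run. No paired analysis was possible because the table holds comparisons of groups and no values per ant.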

Other observations

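Between castes with control siRNA, the 8 pathway lists held genes called in both directions. In the authors' deposited table conv, a leucine-rich repeat protein of the fly trachea and nervous system, was lower in workers by a log2 fold change of -4.17 (adjusted p = 1.03e-34). Cad88C stood at -4.17 there, and the T-box gene bi (3.88), the Wnt receptor gene fz2 (2.07) and the microtubule-associated gene tau (3.03) were higher in workers in the authors' deposited table. The G protein beta subunit gene Gbeta5 was lower in workers (-0.81) and Galphai higher (1.07) in the authors' deposited table. In the cilium list, IFT46 was lower (-2.17) and IFT43 higher (1.11) in workers in the authors' deposited table, with 10 of 25 genes higher and 6 lower. Over all 12338 genes tested between castes, 27.2% were called higher and 26% lower in workers.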
